A study of Mus musculus with 16 samples.

Results

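A set of 52 mouse genes for acute phase, complement and coagulation proteins was followed through 4 liver genotypes. They were taken by symbol, and each was represented by the probe set that carries only its symbol and has the highest mean signal over the 16 arrays. Of the 52, 46 were measured in this way, out of 18820 genes on the array that were. Saa1, Masp2, C4b and Klkb1 appear only in probe sets that also name another gene, and C3 and Cpb2 were not analysed here. Every value below is a log2 signal of one probe set, so that a difference of 1 is 2-fold. Signals are compared between livers for one gene at a time and never between genes.

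Whole livers of male mice aged 7 days, on a mixed C57/BL6 and SV129Ola background, were measured on one-colour Affymetrix arrays, with 1 array per animal and 4 animals per genotype. The IKKβ triple KO mice had floxed alleles of Traf2, Casp8 and the IKKβ gene Ikbkb removed from liver parenchymal cells by alfp-Cre. The RIPK3 triple KO mice had Traf2 and Casp8 removed in the same way and lacked Ripk3 in all cells of the body. In the TRAF2/Casp8 KO mice, Traf2 and Casp8 alone were removed from liver parenchymal cells. The WT mice were Cre-negative littermates with floxed alleles. In all Cre-carrying groups the other cells of the liver keep the floxed genes. Each array comes from a different animal by its mouse number.

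Acute phase proteins are plasma proteins, made mostly by hepatocytes, whose production changes in inflammation under interleukin-6, which acts through STAT3, and interleukin-1, which acts through NF-κB. Complement is a cascade of plasma proteases that starts from antibodies, from lectins that bind microbial sugars or from slow spontaneous activation, and ends in a pore in the target membrane. Coagulation is a second protease cascade that ends with thrombin cutting fibrinogen to fibrin. The liver is the main source of most of these proteins, and TRAF2, caspase-8, RIPK3 and IKKβ all act in the signalling of TNF receptors or in the cell death that it can start.

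Array medians lay between 4.90 and 5.05. WT replicate 1 stood apart from the other 15 arrays on the second principal component (-50.5, against -22.3 to 27.0), and its mean over the 46 measured genes was 10.64, against 10.11 to 10.30 in the other WT livers. TRAF2/Casp8 KO replicate 4 carries another array-name prefix than all other arrays. If the array names give plate positions, which was not checked against a layout, IKKβ triple KO and WT shared one plate column and RIPK3 triple KO and TRAF2/Casp8 KO the other, so plate position and genotype cannot be told apart. Casp8 averaged 8.88, 8.69 and 8.95 in IKKβ triple KO, RIPK3 triple KO and TRAF2/Casp8 KO livers, against 9.87 in WT. Ripk3 was lowest in RIPK3 triple KO livers (4.07 to 4.40, against 5.62 to 6.42 in the other genotypes), and Ikbkb was lowest in IKKβ triple KO livers (7.07 to 7.30, against 7.5 to 8.06). Traf2 went the other way than the labels, with means of 6.89, 7.32 and 7.30 in the 3 groups labelled as lacking it, against 6.28 in WT. Whether its probe set covers the deleted part is not given in the sources used here, and genotype names below are those of the labels. The 10 hepatocyte markers measured averaged 12.31 to 12.50, 12.21 to 12.61 and 12.31 to 12.49 in IKKβ triple KO, RIPK3 triple KO and TRAF2/Casp8 KO livers, against 12.32 to 12.52 in WT. In whole tissue, fewer cells of a type and less RNA per cell cannot be told apart.

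In TRAF2/Casp8 KO livers, Saa3 and Saa4 of the serum amyloid A family, the murinoglobulins Mug1 and Mug2 and the lectin gene Mbl2 were lower than in WT, and no gene of the set passed the test as higher. These 5 of 46 passed an adjusted p of 0.05 (limma, Benjamini-Hochberg over all probe sets), where 3.31% of all genes passed, 2.17% higher and 1.14% lower. With both WT replicate 1 and TRAF2/Casp8 KO replicate 4 left out, a choice made after seeing the data, 2 of 46 passed, Saa3 and Mbl2. In RIPK3 triple KO livers Saa3, Mbl2 and the fibrinogen gene Fga were lower than in WT, and the complement gene C2 and the coagulation gene F7 were higher, again 5 of 46, where 3.11% of all genes passed, 1.94% higher and 1.16% lower. In IKKβ triple KO livers compared with WT 0 of 46 passed in limma, where 0.0372% of all genes did (0.0266% higher, 0.0106% lower), although 9 of 46 had an unadjusted p under 0.05 (6.45% of all genes had one).

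Among the genotypes that lack TRAF2 and caspase-8, Mbl2 was higher and Crp and F7 were lower in IKKβ triple KO livers than in RIPK3 triple KO livers, 3 of 46, where 2% of all genes passed, 0.627% higher and 1.38% lower. No gene of the set passed between RIPK3 triple KO and TRAF2/Casp8 KO livers (limma, 0 of 46, where 0.329% of all genes passed, 0.181% higher and 0.149% lower; 8 of 46 had an unadjusted p under 0.05, against 11.1% of all genes). None passed between IKKβ triple KO and TRAF2/Casp8 KO livers either (0 of 46, where 1.02% of all genes passed, 0.117% higher and 0.903% lower; 4 of 46 had an unadjusted p under 0.05, against 10.7% of all genes). Over the 6 comparisons 9 of the 46 genes passed at least once and 37 never did, where 5.54% of all genes passed at least once. Those 6 comparisons share arrays and are not independent of each other.

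The median difference of the 46 genes from WT was -0.11 in IKKβ triple KO, -0.09 in RIPK3 triple KO and -0.15 in TRAF2/Casp8 KO livers, where the median of all genes was -0.01 in each. By sign alone, 38, 32 and 36 of the 46 were lower than in WT in those genotypes, against 53.8%, 52.1% and 52.7% of all genes. The median size of the difference, whatever its sign, was 0.13, 0.19 and 0.18 over the 46 genes, against 0.09, 0.11 and 0.11 over all genes. The 3 comparisons share the WT livers. The 95% interval of the difference lay within 2-fold of WT for 39 of 46 genes in IKKβ triple KO, 39 of 46 in RIPK3 triple KO and 37 of 46 in TRAF2/Casp8 KO livers, against 98.3%, 96% and 96.2% of all genes. The same held for 40 of 46 between RIPK3 triple KO and TRAF2/Casp8 KO livers (97.4% of all genes), 40 of 46 between IKKβ triple KO and TRAF2/Casp8 KO (97.2%) and 39 of 46 between IKKβ triple KO and RIPK3 triple KO (95.9%). Saa2, Orm1, Orm2, Mug1 and Mug2 lay outside it in all 6 comparisons. For the genes of highest signal, an interval within 2-fold is a statement about signal only, because how well such signals follow the amount of RNA was not tested.

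**Figure D1:**
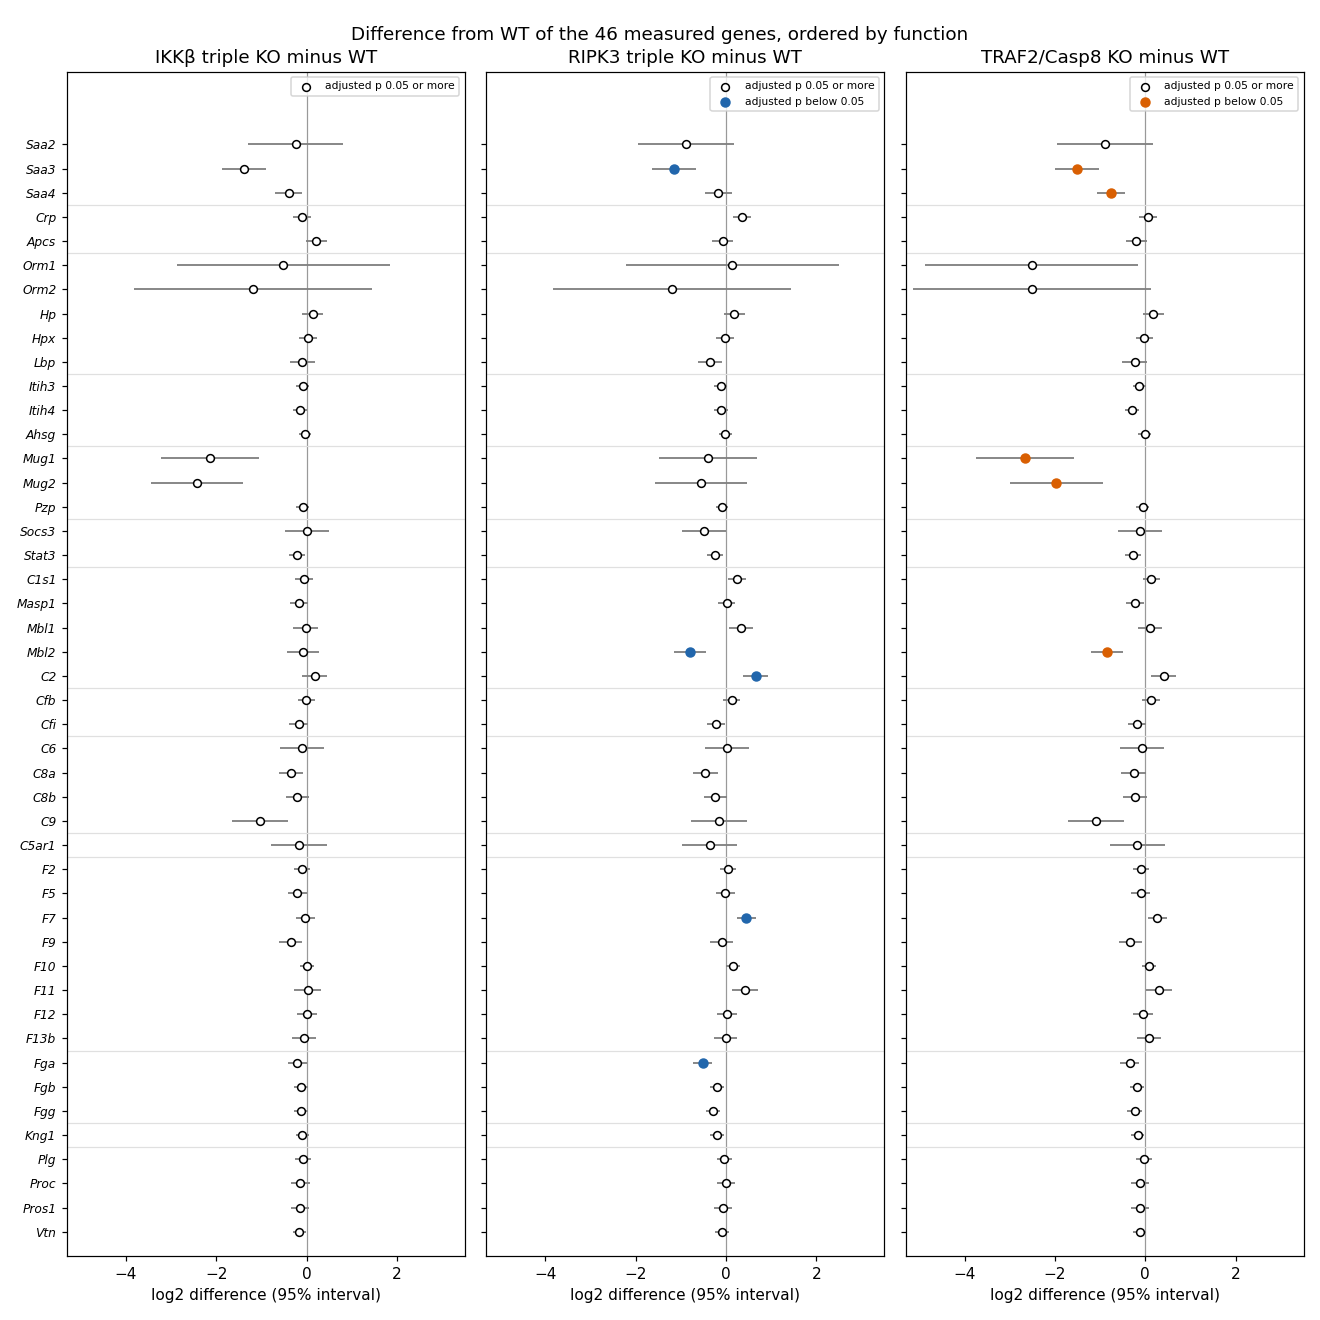
Log2 difference from WT with its 95% interval for the 46 measured genes, ordered by function, in IKKβ triple KO, RIPK3 triple KO and TRAF2/Casp8 KO livers (4 arrays per genotype). Filled points passed an adjusted p of 0.05 in limma: none in IKKβ triple KO, Saa3, Mbl2, C2, F7 and Fga in RIPK3 triple KO, and Saa3, Saa4, Mug1, Mug2 and Mbl2 in TRAF2/Casp8 KO.

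**Figure D2:**
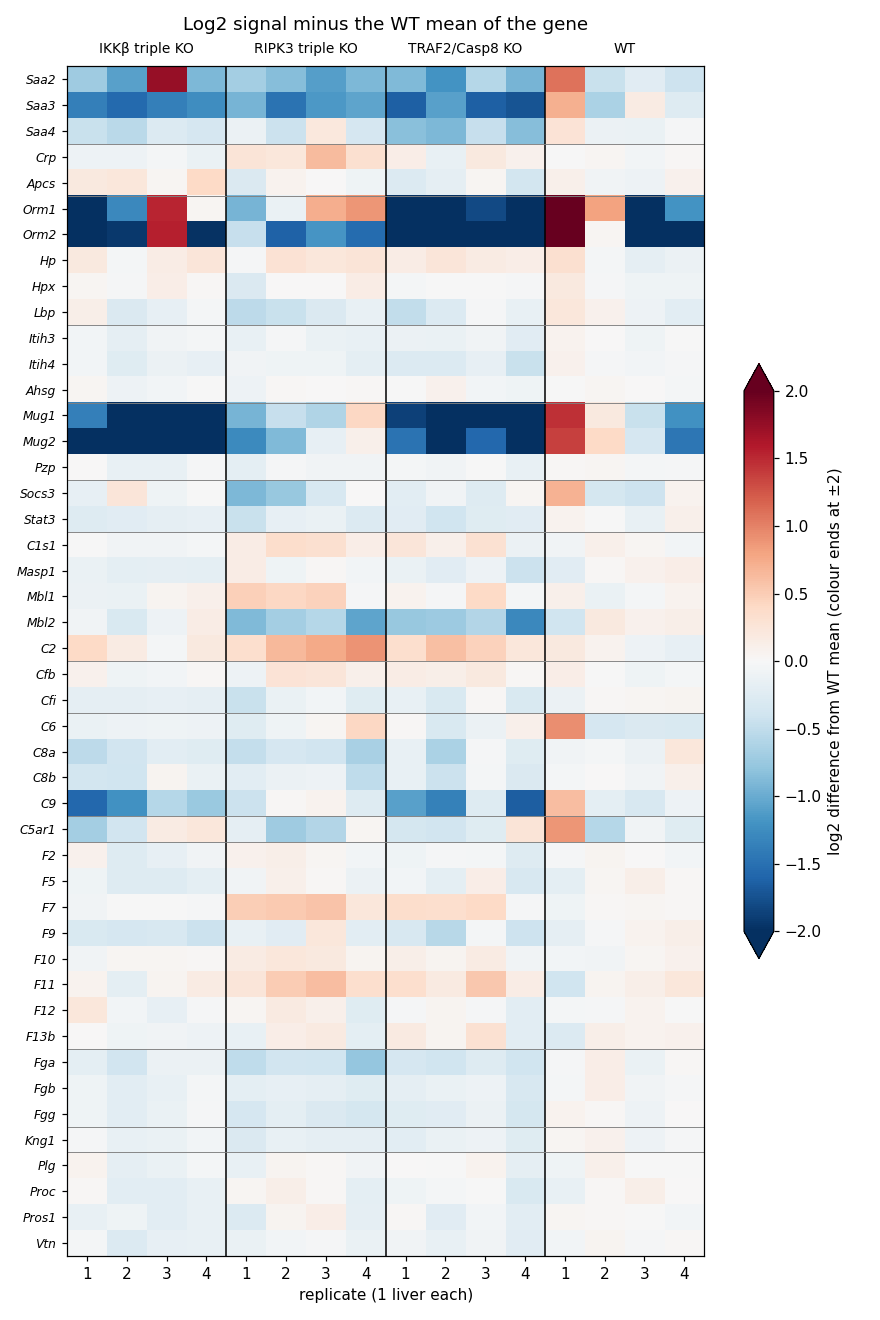
Log2 signal of each of the 46 measured genes in each of the 16 livers minus the WT mean of the gene; the colour ends at 2 on either side. Large departures from WT sit in the rows of Saa2, Saa3, Orm1, Orm2, Mug1, Mug2 and C9, and WT replicate 1 is the highest WT liver in all 7 of these rows.

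The serum amyloid A proteins are small lipoprotein-bound acute phase proteins. Saa3 is an inducible form that in mice is also made outside hepatocytes, including by macrophages, and Saa4 is made constitutively in the liver. Saa3 signal was 3.74, 3.56, 3.74 and 3.87 in IKKβ triple KO livers, 4.18, 3.64, 3.97 and 4.07 in RIPK3 triple KO livers, and 3.48, 4.03, 3.48 and 3.38 in TRAF2/Casp8 KO livers, against 5.83, 4.48, 5.28 and 4.86 in WT. All 12 livers without TRAF2 and caspase-8 by label lay below all 4 WT livers. The difference from WT was -1.52 ± 0.23 (SE, n = 4 per group) in TRAF2/Casp8 KO, 2.86-fold lower, with an adjusted p of 0.00195 in limma. It was -1.15 in RIPK3 triple KO (adjusted p 0.016) and -1.38 in IKKβ triple KO, where the adjusted p of 0.0647 missed the threshold. Between the 3 KO genotypes the Saa3 differences were 0.37 or less in size and none passed. Without WT replicate 1 the difference in TRAF2/Casp8 KO livers was -1.28 (adjusted p 0.00235) and that in RIPK3 triple KO livers -0.91 (adjusted p 0.0202). The call in RIPK3 triple KO livers ended on leaving out replicate 2 of that genotype or WT replicate 3 (adjusted p up to 0.0551). The deposited table has no detection calls, so whether Saa3 signals below 4 stand above background is not known here.

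Saa4 signal was 10.37, 10.28, 10.54 and 10.47 in IKKβ triple KO livers, 10.70, 10.38, 11.02 and 10.48 in RIPK3 triple KO livers, and 9.98, 9.92, 10.35 and 9.96 in TRAF2/Casp8 KO livers, against 11.09, 10.69, 10.68 and 10.79 in WT. All IKKβ triple KO and TRAF2/Casp8 KO livers lay below all WT livers, and RIPK3 triple KO livers overlapped WT. Saa4 was 1.70-fold lower in TRAF2/Casp8 KO livers than in WT (-0.76 ± 0.14, SE; adjusted p 0.00901), and still lower without WT replicate 1 (-0.67, adjusted p 0.024), but not past the threshold with TRAF2/Casp8 KO replicate 4 left out as well (adjusted p 0.0747). The RIPK3 triple KO and TRAF2/Casp8 KO livers did not overlap for Saa4, but the difference of 0.59 had an adjusted p of 0.125. Saa2 was highest in IKKβ triple KO replicate 3 (4.81) and WT replicate 1 (4.16), and the other 14 livers lay between 1.88 and 2.84. Whether these Saa2 signals stand above background is not known here either.

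The 250 bases before the RefSeq start of Saa3 and Saa4 (GRCm38.p6) are shown because both genes were lower in TRAF2/Casp8 KO livers and both promoters hold matches to TTGCNNAA, a core of the sites of C/EBP factors, which drive acute phase genes. Capitals mark the matches on either strand.
Saa3, chr7:46715677-46715926, minus strand: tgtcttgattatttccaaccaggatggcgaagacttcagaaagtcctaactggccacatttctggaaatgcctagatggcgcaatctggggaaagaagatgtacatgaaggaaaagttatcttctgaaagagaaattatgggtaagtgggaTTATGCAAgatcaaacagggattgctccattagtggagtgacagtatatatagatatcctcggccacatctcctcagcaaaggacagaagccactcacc
Saa4, chr7:46732604-46732853, minus strand: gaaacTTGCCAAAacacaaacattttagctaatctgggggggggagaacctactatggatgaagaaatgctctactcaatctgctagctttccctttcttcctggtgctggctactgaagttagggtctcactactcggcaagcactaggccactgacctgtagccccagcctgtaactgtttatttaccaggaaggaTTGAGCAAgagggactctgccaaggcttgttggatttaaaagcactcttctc
Saa3 has 1 match, 99 to 92 bases before the start, and Saa4 has 2, at 245 to 238 and 52 to 45 bases before it. Among the 41 genes of the set with a RefSeq promoter, 15 (36.6%) hold this motif in these bases on either strand, against 9.56% of all 32851 promoters. The set counts 1 promoter per gene, whereas the 32851 count every distinct promoter of a gene. The STAT motif TTCNNNGAA was present in 9 of 41 (22%), against 7.02% of all promoters, and the TATA motif TATAAA in 4 of 41 (9.76%), against 12.4%. The NF-κB consensus, searched as GGGRNNYYCC (R is A or G, Y is C or T), was present in 0 of 41, against 7.25%. Mug1, Mug2 and Mbl2, the other genes of the set that passed as lower in TRAF2/Casp8 KO livers, hold no match to TTGCNNAA in these bases. A match is a run of letters and not a measured site.

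Murinoglobulins are monomeric plasma protease inhibitors of the alpha-macroglobulin family, and Pzp belongs to the same family. Mug1 signal was 7.75, 6.28, 6.82 and 7.04 in IKKβ triple KO livers, 8.18, 8.65, 8.50 and 9.53 in RIPK3 triple KO livers, and 7.24, 6.13, 6.85 and 5.56 in TRAF2/Casp8 KO livers, against 10.57, 9.30, 8.66 and 7.89 in WT. Every IKKβ triple KO and TRAF2/Casp8 KO liver lay below every RIPK3 triple KO and WT liver, and the last 2 genotypes overlapped. The low and the high genotypes are also those that shared plate rows by array name. The part of the plate in this split cannot be told apart, nor can it for Mug2 and C9. Mug1 was 6.33-fold lower in TRAF2/Casp8 KO livers than in WT (-2.66 ± 0.51, SE; adjusted p 0.0111). Without WT replicate 1 the difference was -2.17 (adjusted p 0.0199), and without TRAF2/Casp8 KO replicate 4 it was -2.37 (adjusted p 0.0458). With both left out it was -1.88 and missed the threshold (adjusted p 0.0603).

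Mug2 was low in the same genotypes as Mug1. Its signal was 5.02, 4.44, 5.22 and 5.11 in IKKβ triple KO livers, 6.11, 6.49, 7.21 and 7.47 in RIPK3 triple KO livers, and 5.90, 4.66, 5.81 and 5.25 in TRAF2/Casp8 KO livers, against 8.74, 7.78, 7.05 and 5.93 in WT. The lowest WT liver, replicate 4, was just above the highest TRAF2/Casp8 KO liver. Mug2 was 3.92-fold lower in TRAF2/Casp8 KO livers than in WT (-1.97 ± 0.48, SE; adjusted p 0.0463). Of 16 fits with 1 array left out it held in 3, those without WT replicate 4, RIPK3 triple KO replicate 1 or RIPK3 triple KO replicate 4, and the adjusted p reached 0.125 (0.0842 without WT replicate 1). A second Mug2 probe set of lower mean signal gave a difference of -2.21 (adjusted p 0.0131).

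The RIPK3 triple KO livers had higher Mug1 and Mug2 signals than the TRAF2/Casp8 KO livers, without overlap, by 2.27 (adjusted p 0.0957) and 1.42 (adjusted p 0.324). The IKKβ triple KO livers had lower signals than the RIPK3 triple KO livers, also without overlap, by -1.74 for Mug1 (adjusted p 0.112) and -1.87 for Mug2 (adjusted p 0.0688), and their differences from WT were -2.14 (adjusted p 0.347) and -2.43 (adjusted p 0.168). None of these 6 differences passed. Pzp signal lay between 12.83 and 13.06 in all 16 livers, and its differences were 0.09 or less in size. How well so high a signal follows the amount of Pzp RNA was not tested. Mug1 and Mug2 are close paralogs, and how far their probes also bind each other's RNA was not tested.

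The bases before the starts of Mug1 and Mug2 (GRCm38.p6, RefSeq) are shown because the paralogs varied together. A local alignment of the promoters matched 197 of 222 columns (88.7%), and neither holds a match to any of the 4 motifs named above.
Mug1, chr6:121838291-121838540, plus strand: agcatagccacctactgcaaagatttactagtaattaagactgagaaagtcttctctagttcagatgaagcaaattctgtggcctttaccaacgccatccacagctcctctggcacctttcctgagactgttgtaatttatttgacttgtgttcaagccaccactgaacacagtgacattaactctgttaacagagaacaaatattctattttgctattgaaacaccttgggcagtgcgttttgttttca
Mug2, chr6:122006548-122006797, plus strand: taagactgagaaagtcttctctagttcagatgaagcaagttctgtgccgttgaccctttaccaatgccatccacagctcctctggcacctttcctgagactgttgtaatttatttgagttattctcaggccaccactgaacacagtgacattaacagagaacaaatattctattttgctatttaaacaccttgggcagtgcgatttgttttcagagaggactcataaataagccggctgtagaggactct
Between Saa3 and Saa4 a local alignment found 22 columns only, 17 of them identical.

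The orosomucoids Orm1 and Orm2, acute phase proteins that bind drugs and lipids in plasma, had the largest SD between livers of one genotype when pooled over the 4 genotypes. Orm1 signal was 6.27, 7.31, 10.13 and 8.63 in IKKβ triple KO livers, 7.67, 8.46, 9.32 and 9.48 in RIPK3 triple KO livers, and 5.65, 5.37, 6.80 and 6.52 in TRAF2/Casp8 KO livers, against 12.13, 9.41, 5.46 and 7.40 in WT. The WT livers alone spanned more than the genotype means of Orm1 did. Orm2 signal was 4.33, 4.81, 8.30 and 4.76 in IKKβ triple KO livers, 6.27, 5.12, 5.55 and 5.19 in RIPK3 triple KO livers, and 4.27, 4.16, 4.30 and 4.16 in TRAF2/Casp8 KO livers, against 11.48, 6.78, 4.10 and 4.58 in WT. The TRAF2/Casp8 KO livers were close together for Orm2 (SD 0.0766), at signals below every array median (4.90 to 5.05). Whether Orm2 signals this low stand above background is not known here. WT replicate 1 was the highest liver and IKKβ triple KO replicate 3 the next for Orm1, for Orm2 and, in the opposite order, for Saa2. The Orm1 difference between TRAF2/Casp8 KO livers and WT was -2.51 ± 1.11 (SE), with an adjusted p of 0.322, and RIPK3 triple KO livers were 2.65 higher than TRAF2/Casp8 KO livers (adjusted p 0.437). The 95% interval of the first difference ran from -4.87 to -0.15.

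**Figure D3:**
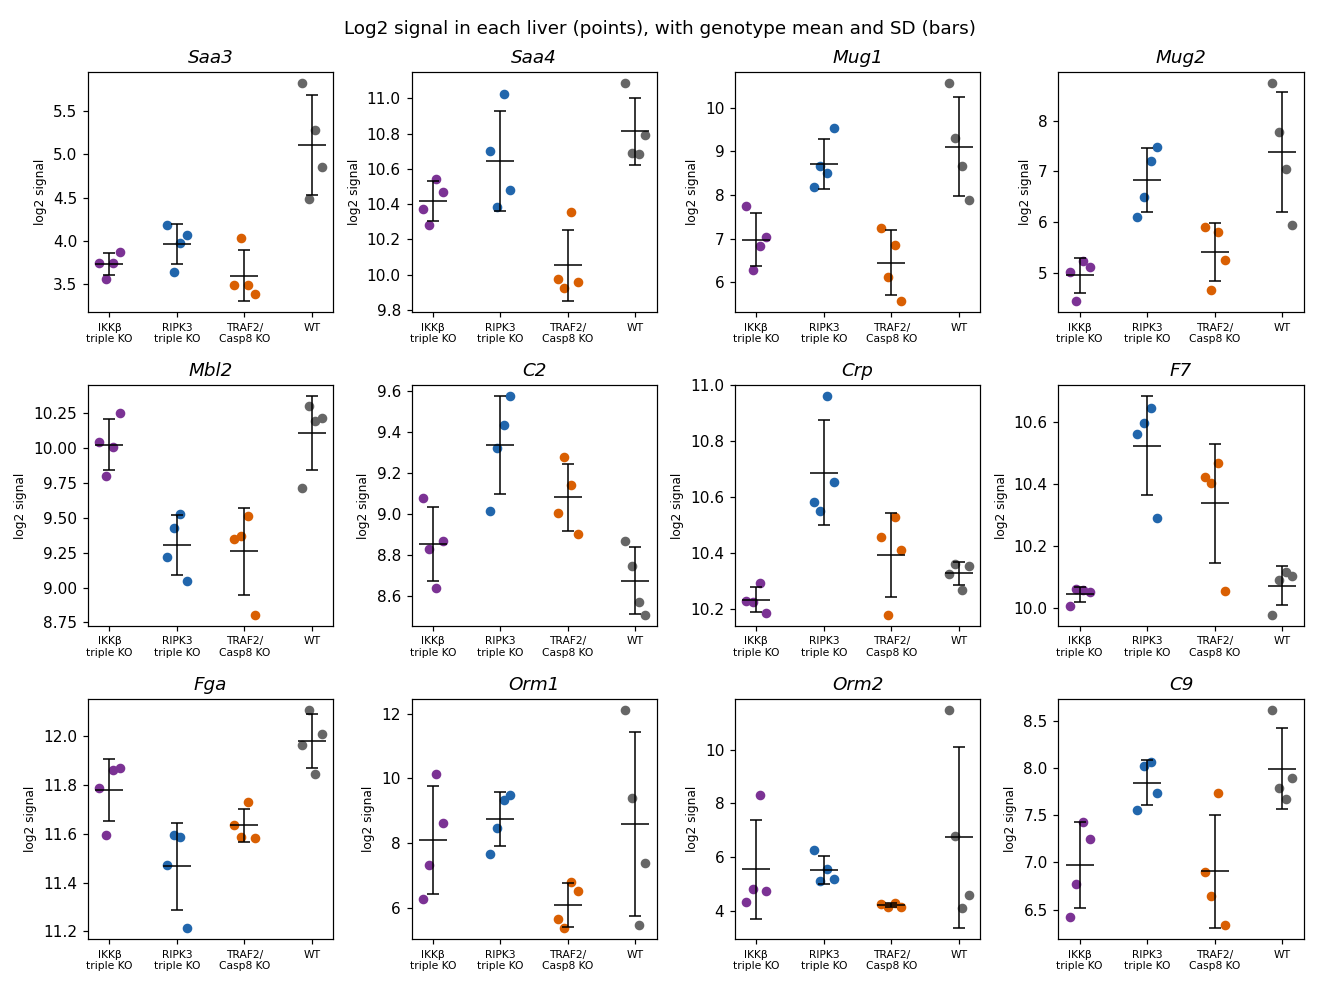
Log2 signal in each of 16 livers for 12 genes of the set, with IKKβ triple KO, RIPK3 triple KO, TRAF2/Casp8 KO and WT from left to right; points are livers, long bars the genotype mean and short bars the SD (n = 4), and each panel has its own axis. Saa3 is lower in all 12 KO livers than in WT, Mug1 and Mug2 are low in IKKβ triple KO and TRAF2/Casp8 KO, Mbl2 is low in RIPK3 triple KO and TRAF2/Casp8 KO, and Orm1 and Orm2 spread widely among the IKKβ triple KO and WT livers.

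The other carriers, Hp for haemoglobin, Hpx for heme and Lbp for bacterial lipopolysaccharide, passed in no comparison. Hp signal lay between 12.42 and 12.92, Hpx between 12.65 and 13.13 and Lbp between 11.21 and 11.96 over the 16 livers. The pentraxin Crp, which binds phosphocholine on microbes and dying cells and is only weakly induced in mice, differed between 2 of the KO genotypes. Crp signal was 10.23, 10.23, 10.30 and 10.19 in IKKβ triple KO livers, 10.59, 10.55, 10.96 and 10.65 in RIPK3 triple KO livers, and 10.46, 10.18, 10.53 and 10.41 in TRAF2/Casp8 KO livers, against 10.33, 10.36, 10.27 and 10.36 in WT. The RIPK3 triple KO livers were above all others. Crp was 1.37-fold lower in IKKβ triple KO than in RIPK3 triple KO livers (-0.45 ± 0.09, SE; adjusted p 0.0286), a call that leaving out RIPK3 triple KO replicate 3 or IKKβ triple KO replicate 2, 3 or 4 ended (adjusted p up to 0.0874), and the RIPK3 triple KO difference from WT was 0.36 (adjusted p 0.0643). Apcs, the serum amyloid P pentraxin and a major acute phase protein of mice, did not pass, with differences from WT of 0.22 in IKKβ triple KO, -0.07 in RIPK3 triple KO and -0.20 in TRAF2/Casp8 KO livers.

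Of the inter-alpha-trypsin inhibitor heavy chains Itih3 and Itih4 and fetuin-A (Ahsg), which keeps calcium phosphate in solution, none passed in any comparison. Itih4 signal was 12.48, 12.30, 12.43 and 12.38 in IKKβ triple KO livers, 12.47, 12.46, 12.46 and 12.35 in RIPK3 triple KO livers, and 12.27, 12.28, 12.38 and 12.09 in TRAF2/Casp8 KO livers, against 12.63, 12.53, 12.49 and 12.52 in WT. All 12 KO livers lay below the WT livers by a small step, -0.29 in TRAF2/Casp8 KO livers (adjusted p 0.0565). Ahsg signal stayed between 13.21 and 13.39 in the 16 livers. STAT3 carries the interleukin-6 signal to acute phase genes and SOCS3 is the inhibitor it induces. Socs3 signal was 5.50 to 5.91 in IKKβ triple KO, 4.76 to 5.66 in RIPK3 triple KO and 5.40 to 5.70 in TRAF2/Casp8 KO livers, against 5.24 to 6.36 in WT, and these ranges overlap. Stat3 differed from WT by -0.20, -0.25 and -0.27 in IKKβ triple KO, RIPK3 triple KO and TRAF2/Casp8 KO livers, with adjusted p of 0.759, 0.154 and 0.121.

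In the first steps of complement, Mbl2 and C2 differed between genotypes and C1s1, Masp1 and Mbl1 passed in no comparison. Mbl2 encodes mannose-binding lectin C, which recognises sugars on microbes and starts the lectin pathway. Its signal was 10.04, 9.80, 10.01 and 10.24 in IKKβ triple KO livers, 9.22, 9.42, 9.52 and 9.04 in RIPK3 triple KO livers, and 9.35, 9.37, 9.51 and 8.81 in TRAF2/Casp8 KO livers, against 9.71, 10.29, 10.19 and 10.21 in WT. The 16 livers fell into a low pair of genotypes, RIPK3 triple KO and TRAF2/Casp8 KO, and a high pair, IKKβ triple KO and WT, with no overlap between the pairs. Mbl2 was 1.80-fold lower in TRAF2/Casp8 KO livers than in WT (-0.84 ± 0.17, SE; adjusted p 0.0135) and 1.74-fold lower in RIPK3 triple KO livers than in WT (-0.80 ± 0.17, SE; adjusted p 0.0198). It was 1.64-fold higher in IKKβ triple KO than in RIPK3 triple KO livers (0.72 ± 0.17, SE; adjusted p 0.0421), and 0.76 higher than in TRAF2/Casp8 KO livers with an adjusted p of 0.0527, which missed the threshold. The IKKβ triple KO livers differed from WT by -0.08, with a 95% interval from -0.44 to 0.27. The low and the high pair are also the genotypes that shared a plate column by array name, so the part of the plate in this split cannot be told apart, nor can it for C2, Crp, F7 and Fga.

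The Mbl2 difference between TRAF2/Casp8 KO and WT kept its call with any 1 array left out (adjusted p up to 0.0497) and was -0.97 without WT replicate 1 (adjusted p 0.00459). The RIPK3 triple KO difference from WT missed the threshold on leaving out RIPK3 triple KO replicate 1 or 4 or WT replicate 2, 3 or 4 (adjusted p up to 0.0698). The IKKβ triple KO difference from RIPK3 triple KO kept its call in 3 of 16 such fits, those without WT replicate 1, TRAF2/Casp8 KO replicate 3 or TRAF2/Casp8 KO replicate 4 (adjusted p up to 0.135). Mbl1, the gene of mannose-binding lectin A, had differences from WT of -0.02 in IKKβ triple KO, 0.33 in RIPK3 triple KO and 0.10 in TRAF2/Casp8 KO livers, none of them past the threshold.

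C2 is the zymogen that, once cut, supplies the protease of the C3 convertase in the classical and lectin pathways. C2 signal was 9.08, 8.83, 8.64 and 8.87 in IKKβ triple KO livers, 9.01, 9.32, 9.43 and 9.57 in RIPK3 triple KO livers, and 9.0, 9.28, 9.14 and 8.90 in TRAF2/Casp8 KO livers, against 8.87, 8.75, 8.57 and 8.51 in WT. All RIPK3 triple KO and TRAF2/Casp8 KO livers lay above all WT livers. C2 was 1.58-fold higher in RIPK3 triple KO livers than in WT (0.66 ± 0.13, SE; adjusted p 0.0153), a call lost without WT replicate 3, WT replicate 4 or RIPK3 triple KO replicate 3 (adjusted p up to 0.0544). In TRAF2/Casp8 KO livers the difference of 0.41 had an adjusted p of 0.142. The 2 measured genes of the alternative pathway and its control, Cfb (factor B) and Cfi (factor I, which cuts C3b and C4b), passed in no comparison. Cfi signal was 12.25 to 12.27 in IKKβ triple KO, 11.99 to 12.38 in RIPK3 triple KO and 12.12 to 12.46 in TRAF2/Casp8 KO livers, against 12.31 to 12.49 in WT.

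Of the terminal components C6, C8a, C8b and C9, which assemble the membrane pore, none passed. C9, the subunit that polymerises to form the ring of the pore, had the widest differences. Its signal was 6.43, 6.78, 7.43 and 7.25 in IKKβ triple KO livers, 7.56, 8.02, 8.06 and 7.74 in RIPK3 triple KO livers, and 6.90, 6.65, 7.73 and 6.34 in TRAF2/Casp8 KO livers, against 8.61, 7.79, 7.67 and 7.89 in WT. IKKβ triple KO livers lay below all WT and all RIPK3 triple KO livers, and TRAF2/Casp8 KO replicate 3 alone of its genotype reached the WT range. The C9 difference from WT was -1.09 in TRAF2/Casp8 KO (adjusted p 0.0688), -1.02 in IKKβ triple KO (adjusted p 0.533) and -0.15 in RIPK3 triple KO livers (adjusted p 0.88). Without TRAF2/Casp8 KO replicate 3 the first of these was -1.36 and passed (adjusted p 0.0155), without replicate 4 of that genotype it was -0.90 (adjusted p 0.207), and with that array and WT replicate 1 both left out it was -0.69 (adjusted p 0.331). C5ar1, the receptor for the C5a fragment on myeloid cells, spanned 4.87 to 5.78 in IKKβ triple KO, 4.84 to 5.58 in RIPK3 triple KO and 5.16 to 5.81 in TRAF2/Casp8 KO livers, against 4.99 to 6.43 in WT, and passed nowhere.

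Among the 8 coagulation factors F2, F5, F7, F9, F10, F11, F12 and F13b, only F7 passed. Factor VII starts coagulation together with tissue factor. F7 signal was 10.01, 10.06, 10.06 and 10.05 in IKKβ triple KO livers, 10.56, 10.60, 10.65 and 10.29 in RIPK3 triple KO livers, and 10.42, 10.40, 10.47 and 10.05 in TRAF2/Casp8 KO livers, against 9.98, 10.09, 10.12 and 10.10 in WT. All RIPK3 triple KO livers were above all IKKβ triple KO and WT livers, and TRAF2/Casp8 KO livers followed them except for replicate 4, which lay at the WT level. F7 was 1.37-fold higher in RIPK3 triple KO livers than in WT (0.45 ± 0.10, SE; adjusted p 0.024) and 1.40-fold lower in IKKβ triple KO than in RIPK3 triple KO livers (-0.48 ± 0.10, SE; adjusted p 0.0247). Each call held in 10 of 16 fits with 1 array left out. Those 10 include every fit that left out an array of a genotype outside the comparison, which cannot change the difference. The first call ended on leaving out RIPK3 triple KO replicate 1, 2 or 3 or WT replicate 2, 3 or 4 (adjusted p up to 0.0804), and the second on leaving out RIPK3 triple KO replicate 1, 2 or 3 or IKKβ triple KO replicate 2, 3 or 4 (adjusted p up to 0.0881). In TRAF2/Casp8 KO livers the F7 difference from WT was 0.27 (adjusted p 0.211). The differences of the other factors from WT lay between -0.35 and 0.43 in the 3 KO genotypes, the extremes being F9 in IKKβ triple KO and F11 in RIPK3 triple KO livers.

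Fibrinogen is built from the chains encoded by Fga, Fgb and Fgg, and all 3 chains are raised in the acute phase response. Fga signal was 11.79, 11.60, 11.86 and 11.87 in IKKβ triple KO livers, 11.47, 11.60, 11.59 and 11.21 in RIPK3 triple KO livers, and 11.64, 11.59, 11.73 and 11.58 in TRAF2/Casp8 KO livers, against 11.96, 12.11, 11.84 and 12.01 in WT. No RIPK3 triple KO or TRAF2/Casp8 KO liver reached the WT range. Fga was 1.43-fold lower in RIPK3 triple KO livers than in WT (-0.51 ± 0.10, SE; adjusted p 0.0113), with any 1 array left out as well (adjusted p up to 0.0438), and a second Fga probe set gave -0.80 (adjusted p 0.0142). The TRAF2/Casp8 KO difference was -0.35 (adjusted p 0.0823). The differences of Fgg and Fgb from WT were -0.29 (adjusted p 0.0502) and -0.20 (adjusted p 0.201) in RIPK3 triple KO livers and -0.24 (adjusted p 0.121) and -0.18 (adjusted p 0.26) in TRAF2/Casp8 KO livers, without overlap with WT for either gene in either genotype. Of the 9 differences of fibrinogen chains from WT, that of Fga in RIPK3 triple KO livers alone passed.

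Kng1, the kininogen of the contact system, and the regulators of clotting and fibrinolysis Plg (plasminogen), Proc (protein C), Pros1 (protein S) and Vtn (vitronectin) passed in no comparison. Kng1 signal was 12.38 to 12.50 in IKKβ triple KO, 12.24 to 12.38 in RIPK3 triple KO and 12.28 to 12.43 in TRAF2/Casp8 KO livers, against 12.42 to 12.61 in WT. RIPK3 triple KO livers alone did not overlap WT for Kng1 (-0.20, adjusted p 0.171). Vtn signal was 12.61 to 12.84 in IKKβ triple KO, 12.74 to 12.85 in RIPK3 triple KO and 12.65 to 12.82 in TRAF2/Casp8 KO livers, against 12.83 to 12.93 in WT. All differences of Plg, Proc, Pros1 and Vtn from WT lay between -0.16 and 0.00.

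By overlap alone, 11 of the 46 genes separated IKKβ triple KO from WT, where 3.92% of all genes did, 15 separated RIPK3 triple KO from WT, where 9.08% did, and 13 separated TRAF2/Casp8 KO from WT, where 11.6% did. The 11 were Saa3, Saa4, Itih4, Mug1, Mug2, Stat3, Cfi, C8a, C9, F9 and Pros1, and all 11 were lower in IKKβ triple KO livers. Of the 15, Crp, C1s1, C2, F7 and F11 were higher and Saa2, Saa3, Itih4, Mbl2, C8a, C8b, Fga, Fgb, Fgg and Kng1 lower in RIPK3 triple KO livers. Of the 13, C2 alone was higher in TRAF2/Casp8 KO livers. Between KO genotypes, 7 genes separated RIPK3 triple KO from TRAF2/Casp8 KO (6.87% of all genes), all of them higher in RIPK3 triple KO livers: Saa4, Crp, Orm1, Orm2, Mug1, Mug2 and Masp1. Apcs, Orm2 and Mbl2 separated IKKβ triple KO from TRAF2/Casp8 KO as higher (7.48% of all genes), and 12 genes separated IKKβ triple KO from RIPK3 triple KO (9.01% of all genes), with Mbl2 and Kng1 higher and the other 10 lower. Of the 10 lower genes, Crp and F7 passed the test, and Mug1, Mug2, C1s1, Masp1, C9, F9, F10 and F11 did not.

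Livers of one genotype were alike for most of the genes and far apart for a few. The SD between livers of one genotype, pooled over the 4 genotypes, had a median of 0.137 over the 46 genes and 0.166 over all 18820 genes. It was above 0.5 for 5 of 46 (10.9%), Orm2 (1.94), Orm1 (1.74), Mug1 (0.797), Saa2 (0.773) and Mug2 (0.751), and for 260 of 18820 genes (1.38%). C9 came next with 0.448. At the other end were Ahsg (0.059), Pzp (0.0645) and Itih3 (0.0654). Their mean signals lay at percentiles 100, 99.9 and 99.7 of all probe sets. Whether signals this high still follow the amount of RNA was not tested, so a small SD there need not mean steady expression. The spread sets what 4 livers can show: the standard error of a difference was 1.23 for Orm2 and 0.06 for Ahsg.

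**Figure D4:**
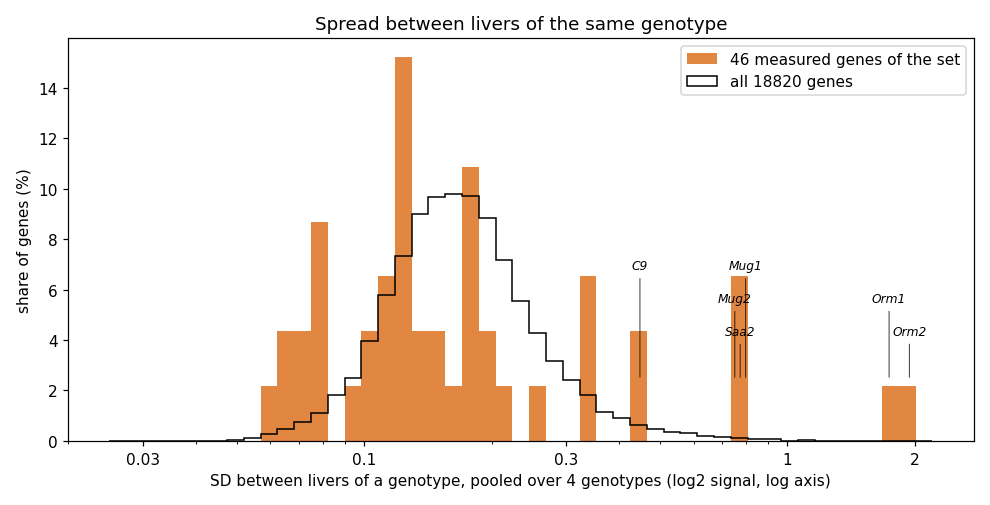
Distribution of the SD between livers of the same genotype, pooled over 4 genotypes (log2 signal, log axis), for the 46 measured genes (filled) and all 18820 genes (line), as a share of genes in percent. Mug1, Mug2, Saa2, Orm1 and Orm2 lie above 0.5, C9 lies at 0.448, and the median of the 46 genes is 0.137 against 0.166 for all genes.

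Of 17 other acute phase genes, Il1rn, the interleukin-1 receptor antagonist, was higher than WT in RIPK3 triple KO (1.47, adjusted p 0.0172) and TRAF2/Casp8 KO livers (1.84, adjusted p 0.00336), Fgl1 was lower in both (-0.49, adjusted p 0.0477, and -0.55, adjusted p 0.0272), and the other 15 did not pass in these 2 comparisons, where 3.11% and 3.31% of all genes passed. A2m, the alpha-2-macroglobulin gene, passed in no comparison, with signals of 6.37, 6.67, 9.79 and 7.42 in IKKβ triple KO livers, 6.17, 5.70, 5.41 and 6.59 in RIPK3 triple KO livers, and 6.92, 5.83, 7.26 and 8.07 in TRAF2/Casp8 KO livers, against 9.49, 7.86, 6.97 and 7.49 in WT. The RIPK3 triple KO livers lay below all WT livers for A2m (-1.98, adjusted p 0.181), and IKKβ triple KO replicate 3 and WT replicate 1 were the highest, as for Orm1, Orm2 and Saa2. Hamp also passed in no comparison and went the other way. Its signal was 10.25 to 11.66 in IKKβ triple KO, 8.56 to 10.74 in RIPK3 triple KO and 9.41 to 10.92 in TRAF2/Casp8 KO livers, against 8.29 to 9.26 in WT. The IKKβ triple KO difference from WT was 1.77 (limma, adjusted p 0.399). In IKKβ triple KO livers Agt, the angiotensin precursor, was lower than in RIPK3 triple KO livers (-0.37, adjusted p 0.0177), 1 of 17, where 2% of all genes passed. None of the 20 measured genes of acute phase signalling passed in any of the 6 comparisons, where 5.54% of all genes passed at least once. With 20 genes, 0 is near that share. The smallest adjusted p in limma was that of the interleukin-6 receptor Il6ra in TRAF2/Casp8 KO livers against WT (-0.45, adjusted p 0.0544).

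Of 18 other complement genes measured, 1 passed in each of 4 comparisons, those of RIPK3 triple KO with WT (3.11% of all genes), TRAF2/Casp8 KO with WT (3.31%), IKKβ triple KO with RIPK3 triple KO (2%) and IKKβ triple KO with TRAF2/Casp8 KO (1.02%). C4bp, which inhibits the classical and lectin convertase, was higher in RIPK3 triple KO livers than in WT (0.72, adjusted p 0.0248) and lower in IKKβ triple KO than in RIPK3 triple KO livers (-0.82, adjusted p 0.0184). The collectin gene Colec10 was lower in TRAF2/Casp8 KO livers than in WT (-0.44, adjusted p 0.0392), and in IKKβ triple KO livers clusterin (Clu) was lower than in TRAF2/Casp8 KO livers (-0.54, adjusted p 0.0272). Of 21 other coagulation genes measured, 1 passed in RIPK3 triple KO livers and 2 in TRAF2/Casp8 KO livers against WT, where 3.11% and 3.31% of all genes passed. Serpina10, the inhibitor of factor Xa that works with protein Z, was higher than WT in RIPK3 triple KO and TRAF2/Casp8 KO livers (0.71 in both, adjusted p 0.00154 and 0.00128) and lower in IKKβ triple KO livers than in either (-0.57 in both, adjusted p 0.0119 and 0.015). In IKKβ triple KO livers the protein Z gene Proz was lower than in RIPK3 triple KO livers (-0.40, adjusted p 0.0388), and Plat, tissue plasminogen activator, was higher in TRAF2/Casp8 KO livers than in WT (0.81, adjusted p 0.00452). No gene of these 2 lists passed in IKKβ triple KO livers against WT, where 0.0372% of all genes did. For C4bp and Serpina10, all RIPK3 triple KO and TRAF2/Casp8 KO livers lay above all IKKβ triple KO and WT livers. Plate column by array name makes the same split, so the part of the plate in it cannot be told apart. The same holds for the other calls of these lists, which also lie between plate columns: those of Il1rn, Fgl1, Agt, Colec10, Clu, Proz and Plat.

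Markers of other liver cells were measured in the same livers. Of 10 macrophage markers none passed in any of the 6 comparisons, where 5.54% of all genes passed at least once. Their mean was 8.81 to 9.0, 8.78 to 9.48 and 8.85 to 9.04 in IKKβ triple KO, RIPK3 triple KO and TRAF2/Casp8 KO livers, against 8.67 to 9.63 in WT. WT replicate 1 had the highest mean of the 16 livers for these markers (9.63, against 8.67 to 8.68 in the other WT livers) and for the neutrophil and myeloid precursor markers (9.90, against 8.41 to 8.79). It is the WT liver that was also highest for Saa2, Saa3, Orm1, Orm2, Mug1, Mug2 and C9, and the part of these cells in those signals was not tested. Of 10 neutrophil and myeloid precursor markers none passed in any of the 6 comparisons either, beside the same 5.54% of all genes. Their means were 8.30 to 9.33, 6.68 to 8.59 and 8.03 to 9.32 in IKKβ triple KO, RIPK3 triple KO and TRAF2/Casp8 KO livers, against 8.41 to 9.90 in WT. All 10 were lower in RIPK3 triple KO livers than in WT by sign (-1.90 to -1.04). Of 5 biliary markers, 0 passed in IKKβ triple KO, 2 were higher in RIPK3 triple KO and 3 in TRAF2/Casp8 KO livers than in WT, where 0.0266%, 1.94% and 2.17% of all genes were higher, with means of 4.98 to 5.71, 5.69 to 6.0 and 5.84 to 6.02, against 4.95 to 5.25 in WT. Of the 10 hepatocyte markers, Fabp1 alone passed, lower in RIPK3 triple KO livers than in WT (-0.45, limma, adjusted p 0.0235), where 3.11% of all genes passed. The part of these cells in the differences of Saa3, Mbl2, C2 and F7 was not tested. The Fabp1 and biliary calls also lie between plate columns by array name, so the part of the plate in them cannot be told apart.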

How the data were processed

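The authors deposited 1 table of log2 values made with RMA, per the submitters' processing notes; which version of it was run is not given in the sources used here. Each of the 16 columns belongs to a sample of the series and entered the analysis, with 0 columns set aside. No normalisation or filter was added. The number of arrays limits the precision.

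Of 35556 probe sets, 21218 carry 1 symbol, 1881 several and 12457 none. Every adjusted p is from limma 3.58.1 in R 4.3.3 (lmFit, eBayes, two-sided), in 1 model of 4 genotypes over 16 arrays and all probe sets, with Benjamini-Hochberg adjustment per comparison over every probe set, at 0.05; the procedure was tested on simulated data. Named genes are those that passed in any of 6 comparisons and the largest difference of each functional group. The genes and lists were chosen with earlier results of these data known. Figures used matplotlib 3.10.9 in Python 3.11.15, and promoters (41 of 52 genes matched, 11 not) were aligned with Biopython 1.88. The model was refitted with each array left out, with a replicate block, with plate row as random block, with array weights, with robust eBayes on an intensity trend and on each pair of genotypes alone. It was also refitted without the dimmest of 3 equal parts, after quantile normalisation again or median centring, and with 1 probe set per gene. A refit added after seeing the data left out WT replicate 1 and TRAF2/Casp8 KO replicate 4 together. The main fit, without a refit, was also read at the second brightest probe set and with only calls of at least 2-fold counted.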

Additional observations from a re-analysis of the deposited data

Results flagged for a closer look

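Over 17 named genes, 4 of 68 genotype groups of 4 livers held 1 liver far from the other 3 relative to the group's range, where chance gives about 1 in 20. TRAF2/Casp8 KO replicate 2 had a Saa3 signal of 4.03, against 3.38 to 3.48 in the other livers of its genotype. TRAF2/Casp8 KO replicate 3 had a Saa4 signal of 10.35, against 9.92 to 9.98. TRAF2/Casp8 KO replicate 4 had an F7 signal of 10.05, against 10.40 to 10.47. RIPK3 triple KO replicate 4 had an Itih4 signal of 12.35, against 12.46 to 12.47.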

How the results depend on the processing

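The number of genes that passed depended on the setting. The intensity trend, the 2-group model, the blocks, 1 probe set per gene and leaving out the dimmest probe sets cannot change a difference. Under these settings only the adjusted p can move, so how firm the differences are cannot be read from them. TRAF2/Casp8 KO against WT gave 5, and 8 with 1 probe set per gene or array weights, 3 with a minimum fold of 2, 2 with a model of the 2 groups or with both doubted arrays left out, and 4 to 6 with 1 array left out. RIPK3 triple KO against WT gave 5, and 8 with 1 probe set per gene, 1 with a minimum fold, 0 with the 2-group model and 1 to 7 with 1 array left out (1 without WT replicate 3, 2 without WT replicate 4, 3 without WT replicate 2 or RIPK3 triple KO replicate 1, 2 or 3). IKKβ triple KO against RIPK3 triple KO gave 3, and 5 with 1 probe set per gene, array weights or both arrays left out, 0 with a minimum fold, 1 with the 2-group model and 0 to 5 with 1 array left out (0 without RIPK3 triple KO replicate 3 or IKKβ triple KO replicate 2, 3 or 4, 1 without RIPK3 triple KO replicate 2, 5 without WT replicate 1). IKKβ triple KO against TRAF2/Casp8 KO gave 0, and 1 with 1 probe set per gene, array weights, median centring, quantile normalisation, the trend, the plate row as a block or without the dimmest probe sets. IKKβ triple KO against WT gave 0, and 2 with 1 probe set per gene and 1 with array weights or without the dimmest. RIPK3 triple KO against TRAF2/Casp8 KO gave 0, and 1 with 1 probe set per gene; each of these last 3 gave 0 to 1 with 1 array left out (1 without WT replicate 1, or for IKKβ triple KO against WT without WT replicate 2 or 4). The cause of these shifts was not tested. The Socs3 difference, IKKβ triple KO against RIPK3 triple KO, was 0.49, and turned to -0.060 with the second brightest probe set. Settings other than leaving out 1 array included the 2-group model, fitted to the arrays of the 2 compared genotypes only. Of 231 differences of named genes under these settings, 209 kept sign and side of the threshold, 16 lost the call, 5 gained one and 1 changed sign. Of 336 with 1 array left out, 283 kept both, 52 lost the call, 1 gained it and 0 changed sign. Leaving out an array of a genotype outside a comparison cannot change its difference. A second probe set exists only for Fga, Mug2 and Socs3. Many entries in both totals could therefore not change in size or sign, and the totals do not measure how firm the differences are.

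Deviations of like-numbered livers correlated at -0.102 to 0.159 and exceeded 0.1 in 4 of 24 pairs, 3 of them in IKKβ triple KO against TRAF2/Casp8 KO (0.113, 0.111 and 0.108, and -0.0224 in the other pair). In no comparison were all pairs above 0.1, so the livers were treated as sharing only a number. With the replicate block the counts were 4, 5 and 2 where 5, 5 and 3 stand without it, and 0 in the other 3 comparisons; Mug2 in TRAF2/Casp8 KO against WT (adjusted p 0.0744) and Mbl2 in IKKβ triple KO against RIPK3 triple KO (adjusted p 0.0594) lost the call.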

Other observations

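Probe sets shared by a gene of the set and another gene gave further values that belong to neither gene alone. The probe set of C4a and C4b, genes of a complement component and its near copy, had signals of 10.85, 10.38, 10.54 and 10.83 in IKKβ triple KO livers, 10.62, 10.60, 10.53 and 10.69 in RIPK3 triple KO livers, and 10.05, 10.30, 10.18 and 10.09 in TRAF2/Casp8 KO livers, against 11.44, 10.86, 10.55 and 10.66 in WT. It was lower in TRAF2/Casp8 KO livers than in all other livers, and its difference from WT passed (-0.72 ± 0.16, SE; limma, adjusted p 0.0277). The probe set of Saa2 and Saa1 read 7.56 in IKKβ triple KO replicate 3 and 7.14 in WT replicate 1, and 2.75 to 4.55 in the other 14 livers. Those are the same 2 livers that were highest for Orm1, Orm2 and Saa2 alone.

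A probe set of Mug1, Mug2 and the pseudogene Mug-ps1 was lower in TRAF2/Casp8 KO livers than in WT (-2.70, limma, adjusted p 0.0057), as was one of Mug1 and Mug-ps1 (-2.41, adjusted p 0.0169). The probe set of Cyp4v3 and Klkb1, the plasma prekallikrein gene, gave lower signals in IKKβ triple KO livers than in RIPK3 triple KO livers (-0.54, adjusted p 0.0392). The probe set of Tardbp and Masp2 passed in no comparison.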
